A study of Mus musculus with 2 samples.

Results

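The regions described are places in the mouse genome where an enrichment peak of control embryonic stem cells had exactly 1 counterpart in Dnmt3L-targeted cells and that counterpart was at least 2 times as wide. Peaks were paired when they overlapped by 1 bp or more, and a pair was kept when neither peak overlapped any other peak of the opposite list. Of 37952 such one-to-one pairs, 1115 were doubled in width, which is 2.94% of the pairs. They involved 2.02% of the 55292 control peaks and 2.45% of the 45579 peaks of the targeted cells. The reverse case, a control peak at least 2 times as wide as its counterpart, was met by 72 pairs, or 0.19%. The regions were chosen by the widths measured in these same 2 libraries, so the counts and widths below describe them and are not evidence of a change.

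The study compared 2 libraries of E14 cells, a mouse embryonic stem cell line. One was from cells transfected with shGFP, a short hairpin RNA against green fluorescent protein that serves as control, and the other from cells transfected with shDnmt3L, a hairpin against Dnmt3L. With 1 library per group there is no spread between replicates and no test, and each difference stands for these libraries alone. The labels conflict on what was enriched: the design text names 5-methylcytosine, whereas the protocol describes capture with a kit for 5-hydroxymethylcytosine, and the peaks are therefore called enrichment peaks. The number of reads behind each list is unknown, and with it the precision of each peak edge.

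Dnmt3L belongs to the DNA methyltransferase family but has lost catalytic activity; it binds the de novo methyltransferases Dnmt3a and Dnmt3b and stimulates them. These enzymes place methyl groups on cytosines, mostly at CpG sites, and Tet dioxygenases can oxidise the methyl group to the hydroxymethyl form. Both marks are found in embryonic stem cells, where de novo methylation and Tet activity are high. A peak in such data is a stretch in which captured fragments pile up above the caller's threshold, so a wider peak is a longer stretch over that threshold and not a direct measure of how many cytosines are modified.

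A typical doubled region grew from a rather narrow peak by about the width of an ordinary one. The control peaks of the 1115 pairs ranged from 637 to 4121 bp, with a median of 1670 bp, and their counterparts from 1463 to 55722 bp, with a median of 4244 bp. The median gain was 2461 bp (quartiles 1931 and 3545 bp), and the median width factor was 2.44. The other 36837 one-to-one pairs had median widths of 2125 bp in the control and 2334 bp in the targeted library. The doubled regions thus started narrower than the other pairs and ended wider. Together they covered 1.91 Mb in shGFP and 5.47 Mb in shDnmt3L. Their net gain of 3.56 Mb was 32.3% of that of all one-to-one pairs.

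**Figure D1:**
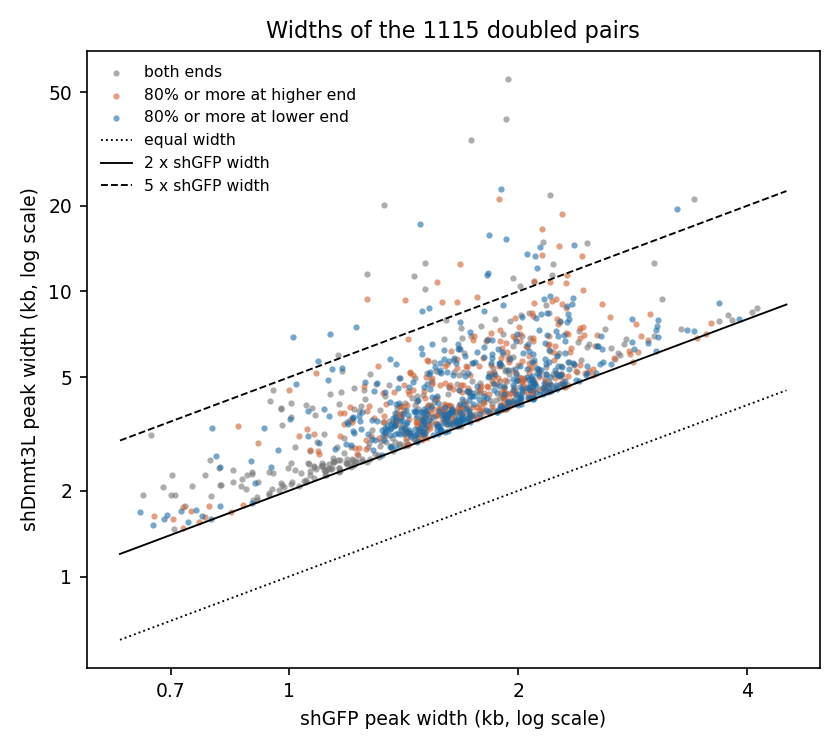
Width of the shDnmt3L peak (vertical axis, kb, log scale) against width of the shGFP peak (horizontal axis, kb, log scale) for each of the 1115 doubled pairs, coloured by where the extra width lies. All points lie on or above the line of factor 2 because the rule put them there; 50 lie on or above the line of factor 5, and control widths go from 637 to 4121 bp.

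Most regions sat close to the limit of the rule. A factor of 3 or more was reached by 281 pairs, a factor of 5 or more by 50 and a factor of 10 or more by 7. Counterparts of 10 kb or more numbered 43, of which 8 were at least 20 kb wide. Just inside the limit were 2 pairs on chromosome 16 with a factor of exactly 2. One had a shDnmt3L peak at chr16:22802288-22806899, 2306 bp wide in the control and 4612 bp in the targeted cells, and the other at chr16:96013521-96017552 went from 2016 to 4032 bp. Another, at chr5:53738960-53742168, went from 1604 to 3209 bp. Just outside were a pair at chr1:121007563-121011867 with 2154 and 4305 bp, one at chr6:101153725-101156190 with 1234 and 2466 bp, and one at chr5:76326855-76331267 with 2209 and 4413 bp. The regions on either side of the limit differ by a few base pairs, and no natural break separates them. Positions are given on mm9, the build named in the submitters' processing notes, and count from 1. No gene annotation of that build was used, so no region is tied to a gene and no sequence is printed.

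The control peak was almost always kept whole inside the wider one. In 1081 of 1115 pairs (97.0%, Wilson 95% interval 95.8 to 97.8%) the shDnmt3L peak covered the full control peak, so new width was added beyond its edges. Wilson intervals here and below cover counting error only and treat regions as independent, which neighbouring regions of the same library are not.

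The extra width lay mainly at 1 end. In 761 pairs (68.3%, interval 65.5 to 70.9%), at least 80% of the gain was beyond one end of the control peak, while 354 pairs gained at both. The limit of 80% keeps the gain at the opposite end short in these pairs. Its median was 145 bp where the lower end had grown and 154 bp where the higher end had. That edge lay within 32 bp of the control edge in 212 of the 761 pairs, on the identical base in 87 and exactly 32 bp outside in 95. One-ended gain was also common among pairs that widened less. It was seen in 60.8% (58.7 to 62.8%) of the 2148 pairs with factors from 1.5 to below 2. Among pairs with factors from 1 to below 1.2 that gained any width it was seen in 65.3%. The median gain in that class was only 32 bp at each end, so a small step of 1 edge counts as one-ended there. That share is therefore not comparable with the one-ended long gains of doubled pairs.

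Slightly more regions grew toward lower than toward higher coordinates. The larger part of the gain was at the lower-coordinate end in 613 pairs (55.0%, interval 52.0 to 57.9%) and at the higher-coordinate end in 502. The median gain was 1313 bp at the lower end and 771 bp at the higher end. Of the 19 chromosomes with 20 or more doubled pairs, 17 had more than 50% of them extended mainly at the lower end. In the 2148 pairs with factors from 1.5 to below 2 that share was 49.4% (47.3 to 51.6%), and in the 281 pairs with a factor of 3 or more it was 52.3% (46.5 to 58.1%). The imbalance was therefore found in the doubled regions as a whole, while the interval of the strongest ones included an even split. Coordinates have no biological direction without strand or genes, and no cause was tested.

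**Figure D2:**
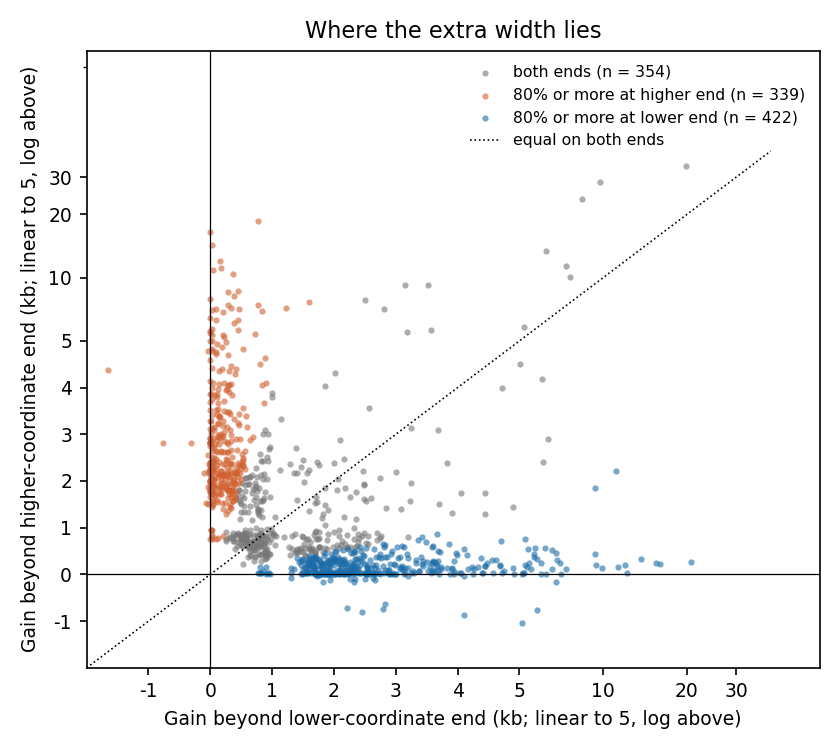
Gain of the shDnmt3L peak beyond the lower-coordinate end (horizontal axis) and beyond the higher-coordinate end (vertical axis) of the shGFP peak, in kb on a scale that is linear up to 5 kb and logarithmic above; each point is 1 doubled pair. The 422 blue and 339 orange points hug the axes, few points lie between 1000 and 1250 bp on either axis, and the largest pair gained 19.9 and 33.9 kb.

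Gains of the doubled pairs fell into short and long ones, with few in between. Of the 2230 ends of the doubled pairs, 200 gained from 750 to below 1000 bp, 18 from 1000 to below 1250 bp, 64 from 1250 to below 1500 bp and 136 from 1500 to below 1750 bp. A shallower dip was present in the other one-to-one pairs, whose 73674 ends numbered 1030, 192, 304 and 271 in the same 4 bins. Gains of 1000 to below 1250 bp were thus rarer than those in the next bin on either side, in doubled and other pairs. In the other pairs, longer gains became rarer still from 1750 bp on, with 118 ends from 1750 to below 2000 bp. The cause of the dip was not tested.

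When the ends were split at 1100 bp, a value chosen after the dip was seen, the doubled pairs formed 4 classes. A long gain at the lower end alone was found in 489 pairs and at the higher end alone in 395, so 79.3% of the regions had a single long gain. Both ends had a long gain in 79 pairs, whose median width went from 1966 to 7005 bp. The remaining 152 pairs had none. They met the rule because their control peaks were narrow, with a median of 1093 bp and a maximum of 1683 bp, and their counterparts had a median of 2396 bp, close to an ordinary peak. The split at 1100 bp and the width rule together exclude wide control peaks and the largest factors from this class, so these traits are built in. The class holds narrow control peaks that reached an average width, and its largest factor was 3.25. Its median control score stood at the 68.2 percentile of the shGFP list and its median shDnmt3L score at the 36.2 percentile of the shDnmt3L list. In the pairs with long gains at both ends these were the 51.5 and the 96.4 percentile.

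The gained stretches lay in intervals that had no called control peak, as the one-to-one rule requires. These intervals were not measured for the other pairs, so their length is not shown to be particular to doubled regions. On the side of larger gain the next control peak was a median of 13798 bp away (quartiles 6659 and 31097 bp). The gain filled a median of 16.3% of this interval (quartiles 7.09 and 37.7%). Only 8 of 1115 pairs (0.717%) filled 90% or more of it. The one-to-one rule leaves out any peak that reached the next control peak. The doubled peaks that were kept mostly ended well before it.

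The 5 regions with the largest gain were on chromosomes 6, 11, 8, 5 and 7. The first, at chr6:52149804-52205525, had a control peak of 1937 bp and a shDnmt3L peak of 55.7 kb, with 19.9 kb gained at the lower end and 33.9 kb at the higher one. At chr11:96129072-96169366 a control peak of 1929 bp lay in a shDnmt3L peak of 40.3 kb, 9.72 kb from its lower edge and 28.6 kb from its upper one. At chr8:59795984-59829854 the widths were 1735 bp and 33.9 kb, with gains of 8.38 and 23.8 kb. These 3 also had the highest width factors, 28.8, 20.9 and 19.5, and in each the control peak lay off centre, toward the lower edge.

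The region at chr5:29792708-29815515 grew almost only toward lower coordinates. Its control peak of 1898 bp became 22.8 kb, with 20.7 kb gained at the lower end and 258 bp at the higher end. At chr7:86640734-86662566 a peak of 2204 bp became 21.8 kb, with 6.23 and 13.4 kb gained. The region at chr19:37758542-37778604, from 1333 bp to 20.06 kb, had the fourth highest factor, 15.1. The control peak on chromosome 19 was in the lowest decile of control width, 510 to 1489 bp, and the others were 1735 to 2204 bp wide. The scores of these 6 control peaks ranged from the 12.4 to the 69.9 percentile of the control list.

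**Figure D3:**
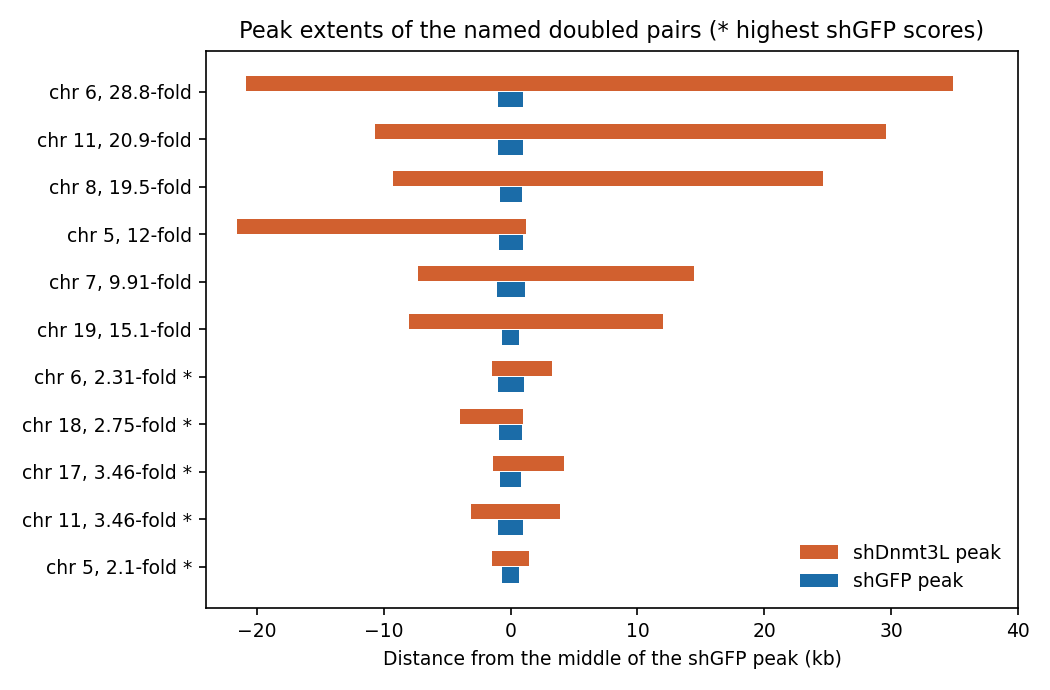
Extent of the shGFP peak (blue) and the shDnmt3L peak (orange) in 11 named pairs, as distance in kb from the middle of the shGFP peak; the 6 upper pairs have the largest gains or factors and the 5 marked with an asterisk the highest shGFP scores. The shDnmt3L peaks of the upper pairs are 20.06 to 55.7 kb wide, those of the lower ones 2.85 to 7.005 kb, and the one on chromosome 5 with a factor of 12.0 extends almost only to the left.

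The control peaks of doubled regions were weaker and narrower than those of the other pairs, though not weak for the whole list. The score is the authors' value for each peak and is used here only to rank peaks within one list. The median control peak of the doubled pairs stood at the 45.6 percentile of the shGFP list (95% interval of the median 42.8 to 48.6), against 62.9 (62.5 to 63.3) for the other pairs. The lowest 25% of the list held 302 of the doubled pairs (27.1%, interval 24.6 to 29.8%) and 9.93% of the other pairs. Strong control peaks were also among them: 78 (6.996%, interval 5.64 to 8.65%) were in the highest 10% of the list, against 13.2% of the other pairs.

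The share of pairs that doubled went down with control width and with control score. By control width it was 9.90% (8.99 to 10.9%) in the lowest decile, 510 to 1489 bp, and 0.316% (0.181 to 0.552%) in the highest. A narrow peak needs fewer bases to double, so this order is partly built into the rule. By control score it was 7.69% (6.88 to 8.58%) in the lowest decile and 1.90% in the fifth, and then stayed between 1.61 and 2.24% up to the highest. In the other pairs the median control percentile rose with control width from 1000 bp on, though not below. The control score was therefore also compared within bands of control width. From 1000 to below 1500 bp the median percentile was 32.8 in doubled and 47.5 in other pairs, and from 1500 to below 2000 bp it was 40.3 and 50.9. From 2000 to below 2500 bp it was 54.2 and 60.3. Below 1000 bp the order was the opposite, 74.3 in 73 doubled and 63.2 in 218 other pairs. From 2500 to below 3000 bp it was opposite too, with 86.4 in 34 doubled pairs and 81.3 in the others. At 3000 bp or more the median was 82.5 in 23 doubled pairs and 86.2 in the others.

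**Figure D4:**
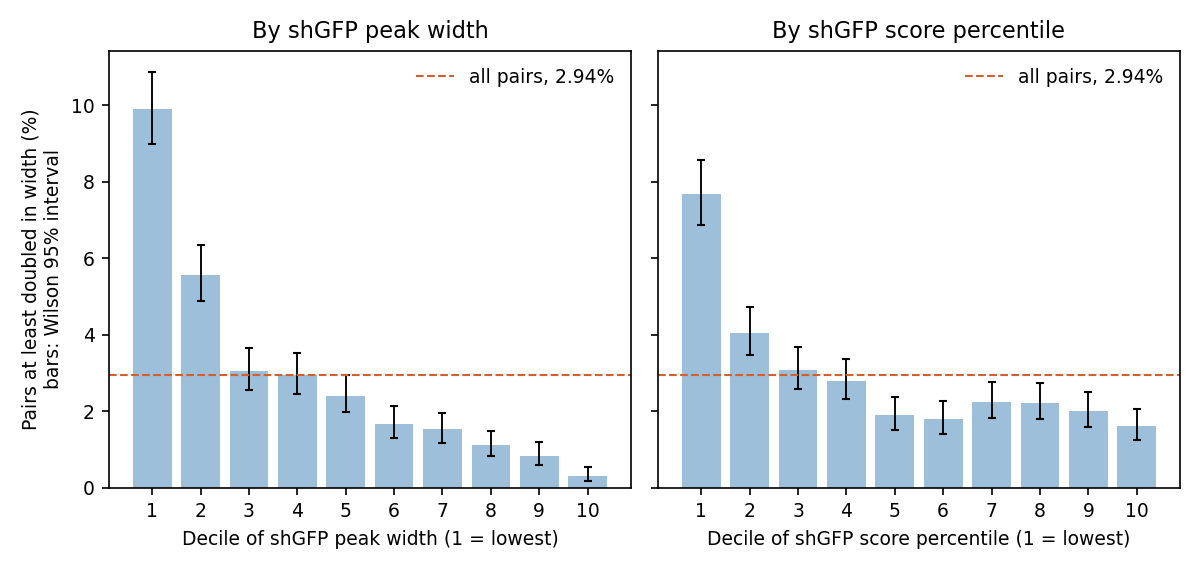
Percent of one-to-one pairs at least doubled in width (vertical axis) by decile of shGFP peak width (left) and of shGFP score percentile (right); bars are the share, whiskers the Wilson 95% interval, the dashed line the 2.94% of all pairs. The share falls through all width deciles, from 9.90 to 0.316%, but levels off from the fifth score decile on, between 1.61 and 2.24%.

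The 5 doubled pairs with the strongest control peaks were strong in both lists. The first, at chr6:91925803-91930479, had a score of 1392 in shGFP, at the 99.8 percentile of that list, and 1082 in shDnmt3L, at the 99.4 percentile of its own. Its width went from 2028 to 4677 bp. At chr18:37677602-37682634 the peak went from 1832 to 5033 bp, with 3117 bp of the gain at the lower end and 84 bp at the higher. At chr17:5850211-5855798 it went from 1615 to 5588 bp, with 3391 bp at the higher end. The other two, at chr11:77753356-77760360 and chr5:142227236-142230086, went from 2025 to 7005 bp and from 1360 to 2851 bp, with gain at both ends. All 5 shDnmt3L peaks were at or above the 95.3 percentile of their list. Their factors, 2.10 to 3.46, were far below those of the regions with the largest gain.

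In the shDnmt3L list the doubled peaks ranked high, but most did not among peaks of their own width. Their median stood at the 73.7 percentile (interval 71.6 to 76.0), against 49.997 (49.5 to 50.5) for the other pairs, and 292 (26.2%) were in the highest 10%. The score rises with width, which the rule used: over the doubled pairs, gained bases and shDnmt3L score had a Spearman correlation of 0.79 (n = 1115 pairs of the same 2 libraries). Compared with all other shDnmt3L peaks of like width, the doubled ones scored lower in the middle bands. Below 2 kb the median was 76.99 (interval 58.5 to 86.9) in 32 doubled peaks and 67.4 (66.9 to 68.0) in 10395 others, with overlapping intervals. From 2 to below 3 kb the median score was 81.3 (interval 77.1 to 87.2) in 131 doubled peaks and 92.7 (91.8 to 93.4) in 24063 others. From 3 to below 4 kb the median score was 106 (interval 101 to 113) in 327 doubled peaks and 155 (153 to 158) in 5636 others. From 4 to below 6 kb it was 206 (195 to 226) in 412 and 245 (239 to 250) in 3297. At 6 to below 10 kb the medians were 449 and 456, and at 10 kb or more 1061 and 1011, with intervals that overlap. The typical doubled peak of 2 to 6 kb thus scored lower than other peaks of its width, and a difference was not detectable in the wider ones. Of all doubled peaks, 2 had the score of 3100, at which several peaks of each list tie.

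Low control rank and high shDnmt3L rank met in a small set. In 57 pairs (5.11%, interval 3.97 to 6.57%) the control peak was in the lowest 25% of its list and the counterpart in the highest 10% of its own. Only 2 of the 36837 other pairs (0.00543%) met both conditions; the shDnmt3L score rises with the width that the rule used, so this contrast is a description. In 51 doubled pairs (4.57%) both peaks were in the highest 10%, against 8.22% of the other pairs. Over all doubled pairs, the percentiles in the 2 lists had a Spearman correlation of 0.28. The rule selects pairs whose widths differ between the lists, and the score rises with width, so this value describes the selected pairs only. No such value is given for the other pairs.

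Peaks called only in shDnmt3L cells were found close to doubled regions more often than close to other pairs. Within 5 kb of the edges of the shDnmt3L peak, 168 of 1115 doubled pairs (15.1%, interval 13.1 to 17.3%) had a shDnmt3L peak that overlapped no control peak, against 5.55% (5.32 to 5.79%) of the other pairs. Within 2 kb the shares were 8.61 and 2.52%, and within 50 kb 49.9 and 35.9%. Peaks called only in the control were instead rarer close to doubled regions. Within 5 kb, 9.69% (8.09 to 11.6%) of doubled and 12.3% (12.0 to 12.7%) of other pairs had one. Within 50 kb these shares were 63.6 and 64.6%. Another control peak of any kind was within 5 kb in 47.4% (44.5 to 50.4%) of doubled and 46.5% (46.01 to 47.03%) of other pairs, and another shDnmt3L peak of any kind in 52.8 and 42.9%. The surroundings of doubled regions thus held a similar share of control peaks and more stretches that passed the threshold only in the shDnmt3L library.

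This share went up with the width factor over all one-to-one pairs. It was 3.81% in pairs whose shDnmt3L peak was the narrower, 5.09% at factors from 1 to below 1.2 and 9.82% from 1.5 to below 2. It then was 10.9% (8.67 to 13.6%) from 2 to below 2.5, 24.7% (19.6 to 30.6%) from 3 to below 5 and 34.0% (22.4 to 47.8%) in the 50 pairs at 5 or more. The step at the limit of 2 was small, and the regions with a factor of 3 or more stood out from those below. Within each band of control width, too, doubled pairs had the higher share, for example 16.6 against 5.18% from 1500 to below 2000 bp. Among the 159 doubled pairs with such a neighbour on 1 side only, it lay on the side of the larger gain in 95 (59.7%, interval 52.0 to 67.1%).

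**Figure D5:**
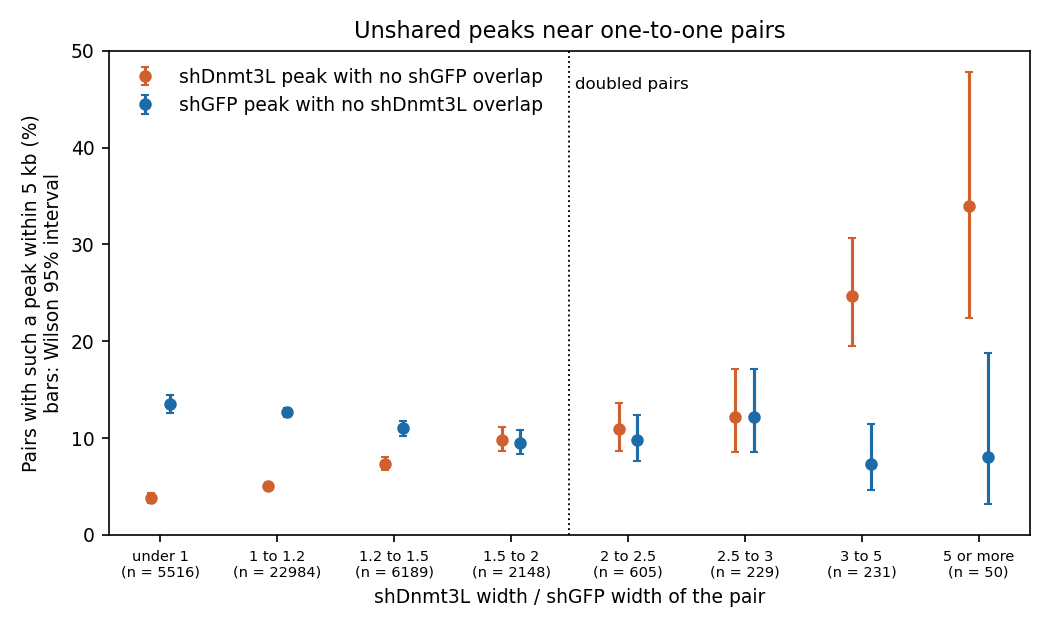
Percent of one-to-one pairs (vertical axis) with an unshared peak within 5 kb of the shDnmt3L peak, by width factor of the pair (horizontal axis), for unshared shDnmt3L peaks (orange) and unshared shGFP peaks (blue); whiskers are Wilson 95% intervals and the dotted line is the limit of 2. The orange points climb from 3.81 to 34.0%. The blue ones fall from 13.5% in the lowest class to 9.54% at factors from 1.5 to below 2, and lie between 7.36 and 12.2% above the limit.

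Most doubled regions had no other doubled region nearby. The nearest one-to-one pair of a doubled pair was itself doubled in 40 of 1115 cases (3.59%, interval 2.65 to 4.85%), against 2.73% (2.57 to 2.90%) around the other pairs. The distance to that nearest pair had a median of 10907 bp, against 10797 bp for the other pairs. Where the nearest pair was 10 to below 20 kb away, it was doubled in 19 of 297 cases (6.40%, interval 4.13 to 9.77%), against 2.96% around other pairs. At less than 5 kb it was doubled in 2 of 188 (1.06%, interval 0.292 to 3.795%), against 2.09%. Distances run between the middles of control peaks, and a doubled peak, with a median width of 4244 bp, may overlap no other control peak. The rule thus leaves little room for 2 doubled pairs at less than 5 kb. The low share there is partly built in and also lowers the share over all distances. These counts are small, and in the full lists the interval of the doubled pairs included the share around other pairs. In 5 of the 7 alternatives it lay above that share. With lists of equal length the shares were 4.74% (3.63 to 6.16%) and 2.85%, and with a factor of 3 they were 3.56% (1.94 to 6.43%) and 0.600%. Whether doubled regions lay side by side more often than other pairs thus depended on the setting.

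Joined over distances up to 100 kb, the 1115 pairs made 975 groups. Of these, 859 held a single pair, 97 held 2, 16 held 3, 1 held 4 and 2 held 5, so 256 pairs (23.0%) shared a group. Whether this share exceeds what the density of one-to-one pairs alone would give was not tested. The group of 5 on chromosome 19, from 45112870 to 45329812, held 11 one-to-one pairs in 217 kb. Its 5 doubled pairs summed to 8946 bp in the control and 32600 bp in the targeted library, with factors from 2.14 to 6.57. The widest of them, at chr19:45219394-45232896, went from 2055 bp to 13.5 kb, 11.3 kb of it gained at the lower end. The other group of 5, on chromosome 2 from 35704902 to 36059047, spread over 354 kb with 15 pairs and summed to 8809 and 23669 bp. In both groups, 3 of 5 regions grew mainly toward lower coordinates, so neighbours did not all extend the same way.

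Among the 5 groups named by the rule, the one of shortest span was on chromosome 11 from 98177739 to 98214650. In its span of 36.9 kb, all 3 one-to-one pairs were doubled, and the 3 shDnmt3L peaks summed to 35724 bp, against 7551 bp in shGFP. Its middle pair, at chr11:98184569-98205621, went from 3407 bp to 21.1 kb with gain at both ends. The pair below it gained 4763 bp at its higher end and the pair above it 5418 bp at its lower end, so both outer peaks grew toward the middle one and the stretch was left with short breaks. The group on chromosome 8 from 25670098 to 25708341 also had 3 of 3 pairs doubled, with factors from 2.01 to 2.19. Its peaks lay further apart: they summed to 7397 bp in shGFP and 15564 bp in shDnmt3L, in a span of 38.2 kb. That span also held 1 control peak that overlapped no shDnmt3L peak. The group of 4, on chromosome 2 from 166965504 to 167068241, held 11 pairs, with factors from 2.13 to 3.65 in the doubled ones.

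Across the genome the doubled regions followed the one-to-one pairs. They were found on all 19 autosomes and, with 1 of 130 pairs (0.769%, interval 0.136 to 4.23%), on the X chromosome. The Y chromosome and the mitochondrial genome had 6 pairs and 1 pair, none doubled, with upper Wilson bounds of 39.03 and 79.3%, so a share near 2.94% would not be detectable there. Chromosome 8, the one with most pairs, held 126 of 4094 (3.08%, interval 2.59 to 3.65%). The autosomal share ranged from 2.21% (1.60 to 3.04%) on chromosome 13 to 3.94% (2.94 to 5.27%) on chromosome 19. The interval of 18 of the 19 autosomes held the share of all pairs, and that of chromosome 19 lay just above it. With chromosomes cut into 3 equal parts up to their last peak, the shares were 2.74, 3.11 and 2.94% from the lower to the higher coordinates, with overlapping intervals.

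At the scale of 1 Mb, doubled pairs were in 723 of 2312 windows that held any pair. A single one was found in 467 windows, 2 in 169, 3 in 54, and 4 or more in the rest. The fullest window, on chromosome 19 from 45000001 to 46000000, had 8 doubled of 36 pairs (22.2%) and contains the group of 5 described above. Windows with 6 doubled pairs were on chromosome 2 from 172000001 (57 pairs), chromosome 8 from 24000001 (65 pairs) and chromosome 12 from 109000001 (61 pairs). No single window thus held more than 8 of the 1115 regions.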

How the data were processed

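The data were 1 list of enrichment peaks per library, with the start, end, name and score of every peak. The deposited score was assigned by the authors' peak caller, and no header states its unit. It starts at 50.01 (shGFP) and 50 (shDnmt3L), where 10 times −log10 of a p-value of 1e-05 would start. Per the submitters' processing notes, the tools included MACS 1.4.1, Bowtie 0.12.7 and CASAVA 1.8, without roles, and the build was mm9. Whether an input control was used, how duplicates were handled and how deep the libraries were is not given in the sources used here. Each of these can move peak edges.

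Peaks were paired and measured in Python 3.11.15 with scipy 1.17.1, pandas 2.3.3 and numpy 2.4.6; the code was tested on simulated data with known widened peaks. Width is the end column minus the start column, which counts from 0, so it equals the printed end minus the printed start plus 1. A score percentile is the mean rank in the whole list of 1 library. Intervals of medians come from binomial order statistics. The regions and measures were chosen with earlier results of these data known. Named regions are the 5 with most extra bases, the 5 of highest factor, the 5 of highest shGFP score, the 3 nearest each side of the limit and the 5 largest groups; the doubled pairs singled out inside those groups, and the split at 1100 bp, were chosen after their values were seen. The alternatives were lists without chromosome 8, peaks of score 100 or more, both lists cut to the shorter length, merging over gaps up to 500 bp, shDnmt3L edges trimmed by 32 bp, a scaled factor and a factor of 3.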

Additional observations from a re-analysis of the deposited data

How the results depend on the processing

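Of 63 alternative values, 43 stayed within the counting interval of the main value (for the number of regions, within 1.5 times) and 20 moved beyond it; the regions extended mainly at the lower end were above 50% in all 7 alternatives. A higher factor redefines the class. With the factor scaled by the median widths, to 2.38, 616 pairs (1.62%) were left, their median shDnmt3L percentile was 84.4 and 17.7% had an unshared shDnmt3L peak within 5 kb. With a factor of 3 it was 281 pairs (0.740%), percentiles of 41.5 in shGFP and 92.4 in shDnmt3L, 26.3% with such a neighbour, and 1.28% as the highest chromosome share. With scores of 100 or more in both lists, 4.07% of pairs were doubled, 78.3% of them at 1 end, and the highest chromosome share was 5.76%, on chromosome 2. There the nearest pair was also doubled in 6.85%, against 3.89% around other pairs. With the scaled factor these shares were 3.25 and 1.38%, and with merged peaks 4.21 and 3.12%. The median shGFP percentile was 48.99 in that shortened list, and an unshared neighbour was found in 11.3%, against 4.37% of other pairs. With peaks within 500 bp merged, 3.34% were doubled, 72.6% at 1 end, and 11.3% had an unshared neighbour, against 4.68% of other pairs. With trimmed edges 2.75% were doubled. A higher factor or minimum score leaves other pairs by construction; otherwise the cause was not tested. The values for unshared neighbours were added after seeing the data. No paired analysis was possible because neither group holds more than 1 library. The unknown depth limits how well peak edges are placed.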
